A study of Mus musculus with 12 samples.

Results

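The complement system was examined here through 9 genes of mouse hippocampus, C1qa, C1qb, C1qc, C2, C4b, C3, Cfb, Serping1 and C3ar1, which were chosen by name from the 22236 genes measured. All 9 were found and all 9 passed the filter on low counts, which kept 15853 genes. mRNA was sequenced from whole hippocampus of males of 2 inbred strains, C57BL/6J (called B6) and DBA/2J (called D2), injected at 3 to 5 months of age. Every mouse received an adeno-associated virus of serotype 9 in both dorsal hippocampi. KD mice got a hairpin directed at Hp1bp3, the gene of a chromatin protein, Ctrl mice got a scrambled one, and tissue was taken at least 6 weeks later. There were 3 libraries in each of 4 groups, B6 Ctrl, B6 KD, D2 Ctrl and D2 KD. No group without virus was analysed here, so what injection and virus do in both arms is part of every level below. Injected and uninjected tissue were homogenised together, and the sources used here do not say which mice had been tested for memory.

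Complement is a cascade of proteins that marks targets for removal and calls in immune cells. In its classical arm C1q, built from the products of C1qa, C1qb and C1qc, binds a target and its proteases C1r and C1s cut C4 and C2, whose fragments together cut C3. The alternative arm uses factor B, the product of Cfb. Serping1 encodes the C1 inhibitor, which blocks C1r and C1s, and C3ar1 encodes the receptor for the C3a fragment. In the brain, microglia are the main source of C1q, astrocytes and other cells can make C3 and C4, and complement takes part in the removal of synapses by microglia. In whole tissue, fewer or more cells of a type and less or more RNA per cell cannot be told apart.

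Levels are given as CPM, a gene's count in every 1000000 counts of a library after TMM scaling. The smallest library held 18.2 M and the largest 39.4 M expected counts. The targeted transcript, Hp1bp3, stood at 308.2, 293.5 and 310.1 CPM in B6 Ctrl 1 to 3 and at 185.4, 181.9 and 258.9 CPM in B6 KD 1 to 3. In D2 it stood at 226.3, 214.9 and 233.8 CPM in Ctrl 1 to 3 and at 176.9, 162.5 and 229.5 CPM in KD 1 to 3. The library labelled D2 KD 3 thus lay within the range of its controls and went against its label, and values are also given without it. The log2 fold change of Hp1bp3 was -0.54 ± 0.15 in B6 (SE, edgeR adjusted p = 0.076) and -0.25 ± 0.15 in D2 (edgeR adjusted p = 1.0), so it did not pass the adjusted threshold of 0.05 in either strain in this fit. In B6 it did pass with DESeq2 (-0.57, adjusted p = 0.00825) and, in edgeR, without B6 KD 3 (-0.76, adjusted p = 0.0226) or without D2 KD 3 (-0.54, adjusted p = 0.0469). Marker genes of choroid plexus epithelium, a tissue within the ventricles, summed to 2790 to 5230 CPM in 7 libraries (B6 Ctrl 2, B6 KD 2 and 3, D2 Ctrl 2 and 3, D2 KD 1 and 3) and to 60.9 to 197 CPM in the other 5. Markers of neurons and of microglia were present in all 12 libraries.

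In B6, all 9 complement transcripts had higher means in KD than in Ctrl, by 2.5-fold for C1qc to 13.1-fold for C3 in the fit. None of them passed the adjusted test: edgeR adjusted p-values ran from 0.056 for C3 to 0.182 for C2, and 2.64% of all genes tested were called in this comparison. At an unadjusted p under 0.05 the count was 9 of 9, against 20.6% of all genes. The median log2 fold change of the 9 was 1.47, against 0.0025 over all genes tested. Every B6 KD library lay above every B6 Ctrl library for 8 of 9 genes, all but C2, while 13.9% of all genes tested separated in that way. In D2 the means of 8 of 9 were higher in KD, with a median log2 fold change of 0.44, and none was called or had an unadjusted p under 0.05. The share of all genes called in D2 was 0%, and 2.9% had an unadjusted p under 0.05. With the library labelled D2 KD 3 left out, log2 fold changes in D2 ran from 0.20 for C3 to 1.09 for Cfb, with edgeR adjusted p-values from 0.647 to 0.969. With D2 KD 2 left out they were 0.02 for C1qa, -0.07 for C1qb, -0.05 for C1qc, 0.54 for C2, 0.11 for C4b, -0.88 for C3, 0.10 for Cfb, 0.02 for Serping1 and -0.24 for C3ar1.

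**Figure D1:**
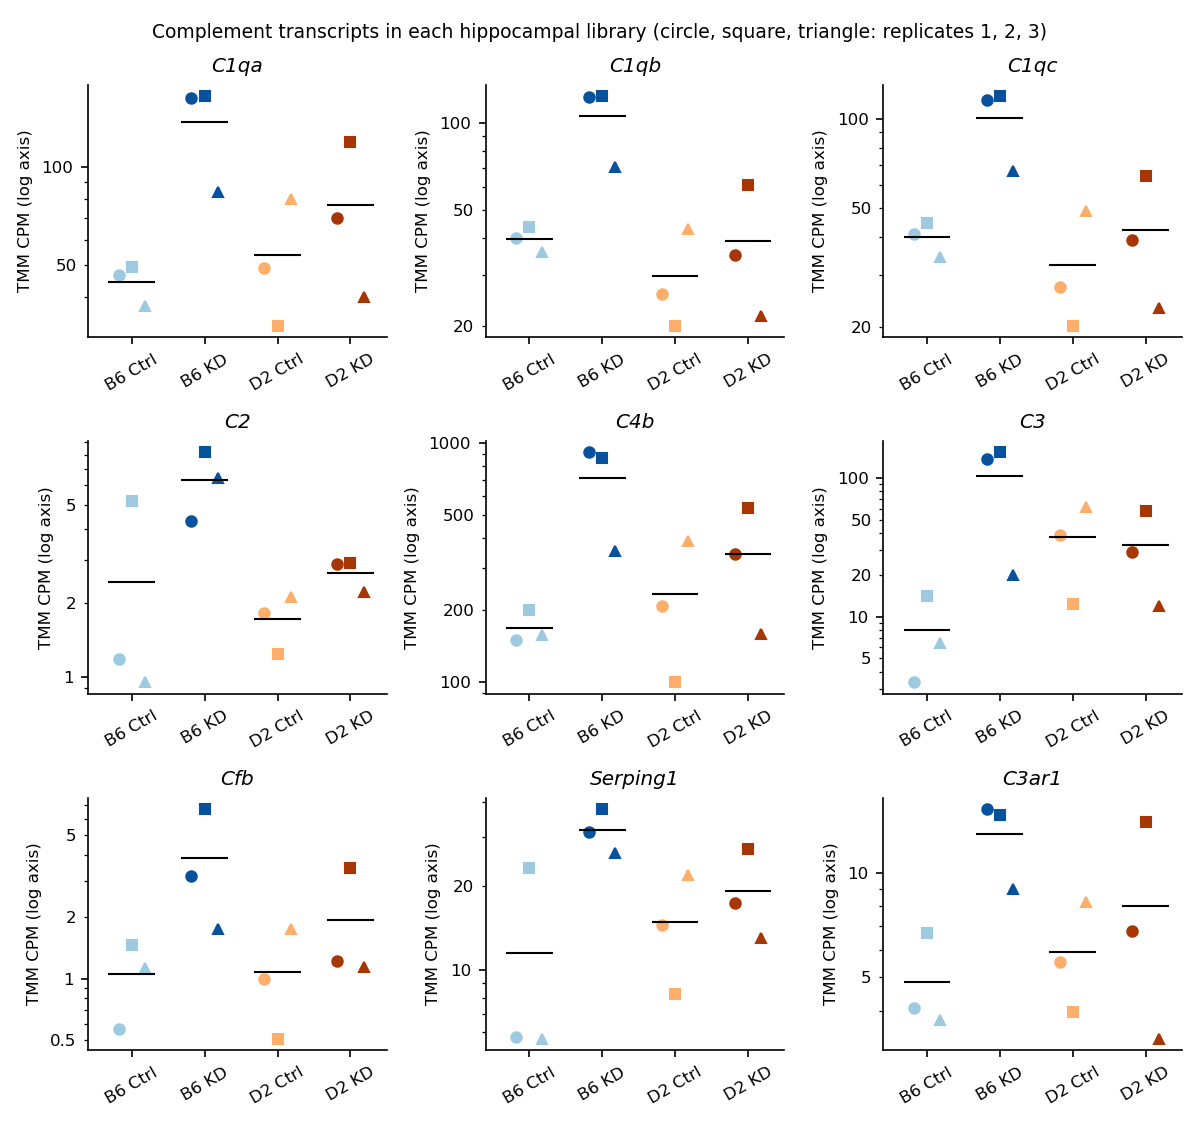
Level of each of the 9 complement transcripts in each library, in TMM-scaled CPM on a log axis, with 3 libraries a group (circle, square and triangle for replicates 1, 2 and 3) and the group mean as a line. In B6 the KD points lie above the Ctrl points in every panel but that of C2, and KD 3 (triangle) is the lowest KD point in every D2 panel.

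C1qa, C1qb and C1qc encode the A, B and C chains of C1q and lie side by side on chromosome 4, all on the minus strand (GRCm38, GENCODE M21: C1qa at chr4:136895917-136898803, C1qc at chr4:136889804-136893065, C1qb at chr4:136880129-136886187). C1qa stood at 46.9, 49.5 and 37.5 CPM in B6 Ctrl and at 163.0, 165.8 and 84.4 CPM in B6 KD. KD 1 and KD 2 were more than 3 times the highest control and KD 3 lay between, above all controls. The means were 44.6 ± 6.29 and 137.7 ± 46.2 CPM (SD, n = 3 each), and the log2 fold change was 1.63 ± 0.42 (edgeR adjusted p = 0.0637). In D2, C1qa stood at 49.2, 32.7 and 80.1 CPM in Ctrl and at 69.7, 120.0 and 40.0 CPM in KD. The D2 groups overlapped, with Ctrl 3 above both KD 1 and KD 3. The D2 log2 fold change was 0.50 ± 0.41 (edgeR adjusted p = 1.0).

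C1qb was 40.0, 43.9 and 35.8 CPM in B6 Ctrl against 123.1, 124.1 and 70.8 CPM in B6 KD. It was 25.8, 20.0 and 42.9 CPM in D2 Ctrl against 35.2, 61.1 and 21.5 CPM in D2 KD. C1qb thus kept the order of libraries seen for C1qa in every group. Its log2 fold change was 1.41 ± 0.38 in B6 (edgeR adjusted p = 0.0683) and 0.41 ± 0.38 in D2. C1qc was 41.2, 44.8 and 34.3 CPM in B6 Ctrl against 115.7, 119.2 and 66.5 CPM in B6 KD. It was 27.2, 20.2 and 49.2 CPM in D2 Ctrl against 39.2, 64.4 and 23.2 CPM in D2 KD. These values followed C1qb closely, with a Pearson r of 1.0 across the 12 libraries, the highest of the 36 pairs among the 9 genes. The log2 fold change of C1qc was 1.32 ± 0.39 in B6 (edgeR adjusted p = 0.0915) and 0.39 ± 0.39 in D2.

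The RefSeq promoter table held windows for 4 of the 9 genes, C1qb, C1qc, C3 and C3ar1, each reaching from 250 bases before to 50 bases after the gene start. The neighbours C1qb and C1qc are shown because their levels moved together most closely. Capitals mark the ETS core AGGAAG on either strand, a sequence bound by factors of the ETS family such as PU.1, and the letters were picked with earlier results known. The windows are chr4:136886151-136886450 and chr4:136892865-136893164 of GRCm38.p6, both on the minus strand, read 5′ to 3′ along the gene.
C1qb: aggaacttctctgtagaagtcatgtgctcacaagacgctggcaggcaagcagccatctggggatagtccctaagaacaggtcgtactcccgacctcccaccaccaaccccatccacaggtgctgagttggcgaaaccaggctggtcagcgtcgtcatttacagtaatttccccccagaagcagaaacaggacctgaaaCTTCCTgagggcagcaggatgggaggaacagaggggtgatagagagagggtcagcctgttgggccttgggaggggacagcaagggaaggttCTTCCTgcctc
C1qc: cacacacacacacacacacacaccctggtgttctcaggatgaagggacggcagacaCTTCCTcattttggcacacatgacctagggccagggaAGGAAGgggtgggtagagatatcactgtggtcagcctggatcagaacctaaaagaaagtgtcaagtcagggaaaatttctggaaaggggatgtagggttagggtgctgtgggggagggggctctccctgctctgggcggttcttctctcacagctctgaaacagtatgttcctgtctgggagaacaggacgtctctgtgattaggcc
Each of these windows held 2 matches, none overlapping another, and 35.4% of 32851 RefSeq promoters held at least 1. Neither held the interferon-stimulated response element core (GAAA, any 2 bases, GAAA), found in 3.4% of all promoters, nor the gamma-activated site TTCNNNGAA, found in 8.3%. A match describes letters and is not evidence of a bound factor.

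The microglial markers moved with the C1q genes in B6. The mean log2(CPM + 1) of 16 microglial genes that include no complement gene was 4.82 to 5.03 in B6 Ctrl and 5.27 to 5.96 in B6 KD, and their summed level was 769 to 890 CPM and 1200 to 1730 CPM. All 16 had a positive log2 fold change in B6, with a median of 0.76, and 1 was called, against 2.64% of all genes tested. In D2 the score was 4.55 to 5.21 in Ctrl and 4.55 to 5.22 in KD, and 8 of 16 were positive. The 9 markers of border or infiltrating myeloid cells were all positive in both strains, with median log2 fold changes of 1.18 in B6 and 0.72 in D2, and none was called. Their summed level was 5.67 to 17.8 CPM in B6 Ctrl, 17.1 to 30.1 in B6 KD, 7.13 to 9.37 in D2 Ctrl and 8.70 to 15.6 in D2 KD. The T cell markers, of which 4 of 5 were in the table, summed to 0.578 to 1.24 CPM in B6 Ctrl, 1.23 to 5.92 in B6 KD, 0.34 to 1.19 in D2 Ctrl and 0.506 to 0.594 in D2 KD. The sums cover different genes and numbers of genes, so they do not rank the cell types. The part of the myeloid and T cell lists in the C1q values was not tested. Measured as the log2 level minus this score, C1qa was 0.62, 0.62 and 0.45 in B6 Ctrl and 1.40, 1.57 and 1.15 in B6 KD. C1qa was therefore higher in B6 KD also relative to these markers, by 0.81 on the log2 scale, and C1qb and C1qc by 0.61 and 0.52. In D2 the same differences were 0.43, 0.33 and 0.34, with overlapping groups. In a fit with the score as a covariate the B6 log2 fold changes were 0.16 ± 0.15 for C1qa, 0.13 ± 0.16 for C1qb and -0.02 ± 0.16 for C1qc. In D2 they were 0.43 ± 0.11, 0.33 ± 0.12 and 0.34 ± 0.12. No gene tested was called for KD in either strain in that fit. The slope on the score in that fit comes from differences between libraries within groups of both strains. The score is itself higher in B6 KD, so the fit takes a part set by that slope from the B6 change. The part of cell number in these values was not tested.

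**Figure D2:**
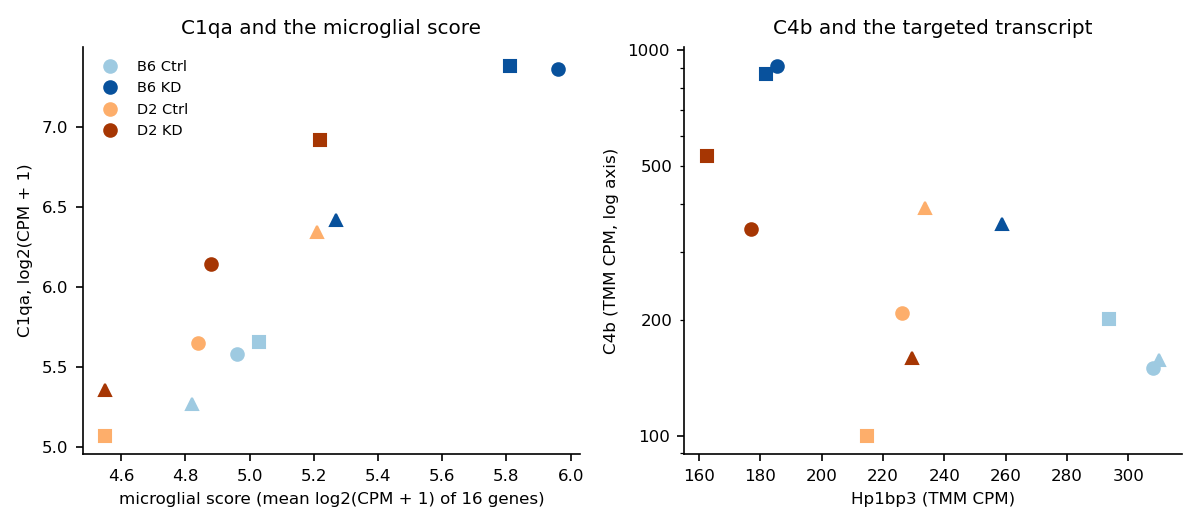
Left, log2(CPM + 1) of C1qa against the mean log2(CPM + 1) of 16 microglial genes in each of 12 libraries. Right, C4b against Hp1bp3 in TMM-scaled CPM, with C4b on a log axis. Colours give the group and circle, square and triangle the replicate. B6 KD 1 and 2 have the highest microglial scores (5.96 and 5.81) and the highest C4b, and B6 KD 3 and D2 KD 3 have the highest Hp1bp3 and the lowest C4b of their KD groups. Within D2 Ctrl, Ctrl 3 has both the highest Hp1bp3 and the highest C4b.

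C4b encodes complement C4, which C1s cuts, and C2 encodes the protease that joins it. C4b lies on chromosome 17 in the major histocompatibility region (chr17:34728380-34743882, minus strand) and had the highest CPM of the 9. It stood at 149.5, 200.7 and 157.1 CPM in B6 Ctrl and at 912.4, 867.6 and 354.8 CPM in B6 KD. In B6 the groups were wide apart for KD 1 and KD 2 and closer for KD 3. The means were 169.1 ± 27.6 and 711.6 ± 309.8 CPM (SD, n = 3 each) and the log2 fold change was 2.07 ± 0.55 (edgeR adjusted p = 0.0662). In D2, C4b stood at 207.7, 100.02 and 390.6 CPM in Ctrl and at 343.6, 532.5 and 159.1 CPM in KD. The D2 groups overlapped and the log2 fold change was 0.57 ± 0.53 (edgeR adjusted p = 1.0). C4b shares reads with its near copy C4a, and RSEM divides such reads, so its counts carry decimals and its level is uncertain by that share. C4a itself stood between 2.41 and 7.06 CPM in all 12 libraries, with a B6 log2 fold change of 0.17 ± 0.18. The ratio of C4b to C4a per kilobase was 28.6 to 40.0 in B6 Ctrl and 82.1 to 148 in B6 KD. In D2 it was 31.6 to 177 in Ctrl and 66.8 to 223 in KD, with overlap.

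C2 was low, at 1.19, 5.16 and 0.95 CPM in B6 Ctrl and at 4.28, 8.16 and 6.43 CPM in B6 KD. B6 Ctrl 2 lay above KD 1, so C2 was the gene of the 9 whose B6 groups overlapped. Its B6 log2 fold change was 1.38 ± 0.54 (edgeR adjusted p = 0.182), and without B6 Ctrl 2 it was 2.52 with an edgeR adjusted p of 0.0335. That library also had the highest level of all 9 genes within B6 Ctrl, the highest score of mural and fibroblast-like markers of that group (5.71, against 4.50 and 4.35) and its highest summed choroid plexus markers (2790 CPM, against 80.3 and 156), whose part was not tested. In D2, C2 was 1.83, 1.25 and 2.11 CPM in Ctrl and 2.87, 2.89 and 2.21 CPM in KD. It was the only 1 of 9 whose D2 KD libraries all lay above the D2 Ctrl libraries, against 2.93% of all genes tested, and its log2 fold change was 0.61 ± 0.55 (edgeR adjusted p = 1.0). C2 (chr17:34862604-34898265) and Cfb (chr17:34856374-34862518) overlap an annotated joint gene, Gm20547, on the same strand, so the division of reads among them is uncertain.

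C3 encodes the central protein of the cascade, cut by both arms, and lies at chr17:57203970-57228136 on the minus strand. C3 stood at 3.37, 14.1 and 6.42 CPM in B6 Ctrl and at 136.4, 152.2 and 19.9 CPM in B6 KD. KD 1 and KD 2 were more than 6 times as high as KD 3, and KD 3 exceeded the highest control by 1.41-fold. The means were 7.95 ± 5.51 and 102.8 ± 72.3 CPM (SD, n = 3 each), and the log2 fold change of 3.71 ± 0.91 (edgeR adjusted p = 0.056) was the largest of the 9. Without B6 Ctrl 2 it was 4.37 (edgeR adjusted p = 0.0701). In D2, C3 stood at 38.5, 12.3 and 62.0 CPM in Ctrl and at 29.1, 57.7 and 12.0 CPM in KD. The D2 groups covered the same range, and the log2 fold change was -0.20 ± 0.82, the only negative one of the 9. Without the library labelled D2 KD 3 it was 0.20 (edgeR adjusted p = 0.969). The difference between the strains in the KD change of C3 was -3.90 ± 1.2 on the log2 scale, with an unadjusted edgeR p of 0.00802 and an adjusted p of 0.821.

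Markers of reactive astrocytes, a state that follows injury, also differed between the B6 groups. The mean log2(CPM + 1) of 6 such genes was 3.06 to 3.90 in B6 Ctrl and 5.67 to 6.03 in B6 KD, while it was 3.60 to 5.15 in D2 Ctrl and 3.94 to 5.12 in D2 KD. All 6 had a positive log2 fold change in B6, with a median of 2.65, and 1 was called. In D2, 4 were positive, with a median of 0.32, and none was called. In B6 KD 1 to 3 the score was 5.67, 6.03 and 5.73, and C3 stood at 136.4, 152.2 and 19.9 CPM. The 12 interferon response genes had scores of 1.93 to 2.27 in B6 Ctrl, 4.59 to 6.26 in B6 KD, 2.23 to 3.62 in D2 Ctrl and 2.64 to 4.85 in D2 KD. All 12 were called in B6, all higher in KD, and none in D2, against 2.64% of all genes tested in B6 and 0% in D2. The part of either list in the complement values was not tested.

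The promoter of C3 is shown because this gene had the largest B6 difference. Capitals mark 1 match, on the strand opposite to the gene, to the C/EBP core TTNNGCAA, a motif of acute-phase genes present in 10.8% of all promoters. The window is chr17:57228087-57228386 of GRCm38.p6, minus strand, read along the gene.
C3: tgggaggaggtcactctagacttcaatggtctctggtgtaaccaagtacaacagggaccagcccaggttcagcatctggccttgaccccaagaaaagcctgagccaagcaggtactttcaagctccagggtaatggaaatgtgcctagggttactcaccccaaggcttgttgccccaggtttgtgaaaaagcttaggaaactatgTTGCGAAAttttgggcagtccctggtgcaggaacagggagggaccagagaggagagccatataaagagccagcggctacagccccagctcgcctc
This window held no match to the ETS core, the interferon-stimulated response element core or the gamma-activated site.

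Cfb, the protease of the alternative arm, was the lowest of the 9, with 9 to 153 expected counts in a library. It was 0.57, 1.45 and 1.13 CPM in B6 Ctrl and 3.15, 6.71 and 1.74 CPM in B6 KD. The groups did not overlap, with KD 3 the nearest KD library to Ctrl 2. The B6 log2 fold change was 1.88 ± 0.63 (edgeR adjusted p = 0.126), and without B6 KD 2 it was 1.21 (edgeR adjusted p = 0.368). In D2, Cfb was 0.99, 0.51 and 1.74 CPM in Ctrl and 1.22, 3.45 and 1.14 CPM in KD, with overlap, and the log2 fold change was 0.82 ± 0.63 (edgeR adjusted p = 1.0).

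Serping1, the inhibitor of C1r and C1s (chr2:84765387-84775444, minus strand), was 5.80, 23.3 and 5.70 CPM in B6 Ctrl and 31.4, 37.8 and 26.3 CPM in B6 KD. B6 Ctrl 2 stood near the KD libraries and the other controls far below. The B6 log2 fold change was 1.47 ± 0.54 (edgeR adjusted p = 0.158). Without B6 Ctrl 2 it was 2.44 (edgeR adjusted p = 0.044), and DESeq2 with all libraries gave 1.44 (adjusted p = 0.0487). In D2, Serping1 was 14.6, 8.26 and 22.0 CPM in Ctrl and 17.4, 27.1 and 13.1 CPM in KD, with overlap, and the log2 fold change was 0.36 ± 0.53 (edgeR adjusted p = 1.0).

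C3ar1, the C3a receptor of microglia and other myeloid cells (chr6:122847138-122856161, minus strand), was 4.07, 6.69 and 3.76 CPM in B6 Ctrl and 15.3, 14.7 and 8.94 CPM in B6 KD. The groups did not overlap, and the log2 fold change was 1.42 ± 0.47 (edgeR adjusted p = 0.122). In D2 it was 5.54, 3.96 and 8.22 CPM in Ctrl and 6.78, 13.99 and 3.32 CPM in KD. D2 KD 3 held the lowest level of the 6 D2 libraries, and the log2 fold change was 0.44 ± 0.47 (edgeR adjusted p = 1.0). Relative to the microglial score, C3ar1 was 0.52 higher in B6 KD than in B6 Ctrl on the log2 scale, and C3 was 2.53 higher. With that score as a covariate the B6 log2 fold change of C3ar1 was -0.02 ± 0.32, that of C3 0.54 ± 0.61 and that of C4b 0.14 ± 0.21. In D2 they were 0.27 ± 0.23, -0.29 ± 0.40 and 0.56 ± 0.15, and none was called.

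The promoter of C3ar1 is shown because it encodes the receptor for a fragment of C3. Capitals mark its 1 match to the ETS core, on the strand opposite to the gene, in the window chr6:122856108-122856407 of GRCm38.p6, minus strand.
C3ar1: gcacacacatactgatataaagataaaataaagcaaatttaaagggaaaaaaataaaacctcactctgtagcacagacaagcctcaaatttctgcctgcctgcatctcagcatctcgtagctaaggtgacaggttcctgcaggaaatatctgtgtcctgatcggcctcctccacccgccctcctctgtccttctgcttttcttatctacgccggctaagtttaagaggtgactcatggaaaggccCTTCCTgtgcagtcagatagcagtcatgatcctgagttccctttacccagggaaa
None of the 4 windows held the interferon-stimulated response element core or the gamma-activated site.

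**Figure D3:**
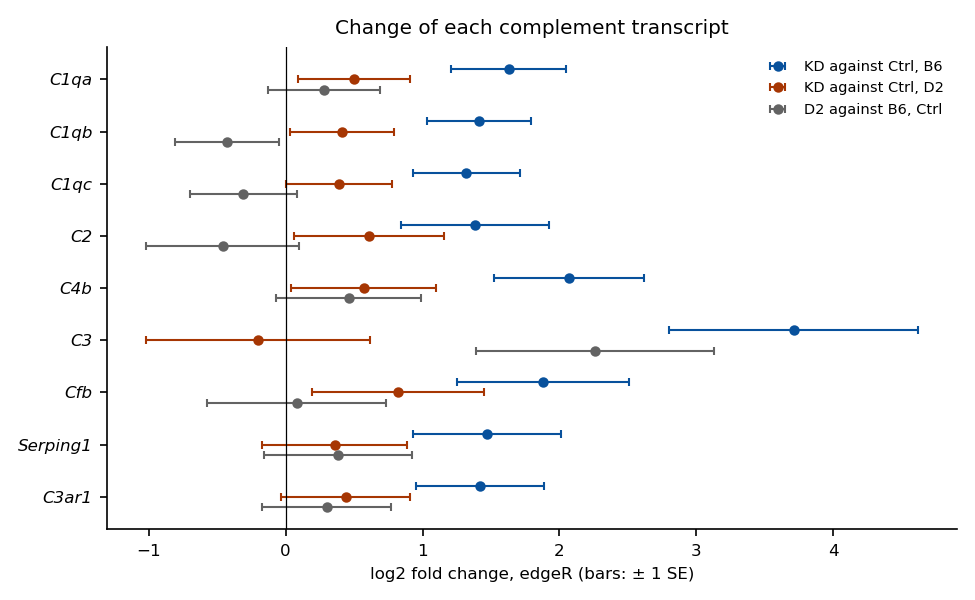
Log2 fold change of each complement transcript in the edgeR fit, with bars of 1 SE, for knockdown in each strain and for D2 against B6 among Ctrl libraries (n = 3 libraries a group). In B6 all 9 estimates lie between 1.32 and 3.71, and in D2 between -0.20 and 0.82. No point passed the adjusted threshold.

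The same libraries were high or low for nearly all of the 9 genes. Within D2 KD, KD 2 was the highest and KD 3 the lowest for 9 of 9, and within D2 Ctrl, Ctrl 3 was the highest and Ctrl 2 the lowest for 9 of 9. Within B6 KD, KD 3 was the lowest for 8 of 9, all but C2. In both strains KD 3 was also the KD library with the most Hp1bp3 transcript. Within D2 Ctrl the order was the other way, with the most Hp1bp3 in Ctrl 3 (233.8 CPM) and the least in Ctrl 2 (214.9 CPM). Within B6 Ctrl, Ctrl 2 had the least Hp1bp3 (293.5 CPM) and the highest level of 9 of 9. The part of Hp1bp3 in these orders was not tested, and how many of all genes share them was not counted. Across the 12 libraries the Pearson r of log2(CPM + 1) over the 36 pairs of the 9 genes ran from 0.61, for C2 and C3, to 1.0, with a median of 0.86. For deviations from the 4 group means it ran from 0.29, for C1qb and C2, to 1.0, with a median of 0.80. These values share libraries, tissue make-up and groups, and describe how the genes moved together.

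The call depended on which libraries and which tool were used. Without the library labelled D2 KD 3, C1qa, C1qb, C3 and C4b were called in B6 (edgeR adjusted p = 0.0415, 0.0428, 0.047 and 0.047), against 4.19% of the genes tested. Without B6 KD 3 the same 4 were called, with log2 fold changes of 1.85, 1.60, 4.17 and 2.37, against 4.94% of the genes tested. When only the 6 B6 libraries were fitted, C1qa, C1qb, C1qc and C4b were called, against 1.89% of the genes tested. DESeq2 called 8 of 9 in B6, all but C2, with adjusted p-values from 0.00146 to 0.0487, against 10.6% of all genes tested. All 9 log2 fold changes in B6 were positive in each of these fits.

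Averaged over the strains, the KD log2 fold change was positive for 9 of 9, from 0.86 for C1qc to 1.76 for C3, with edgeR adjusted p-values from 0.0955 to 0.227. None was called, and 0% of all genes tested were; at an unadjusted p under 0.05 the count was 9 of 9, against 19.2% of all genes. DESeq2 called 5 of 9 in this comparison (C1qa, C1qb, C1qc, C4b and Cfb), against 7.83% of all genes tested. Without D2 KD 3, C1qa, C1qb, C4b and C3ar1 were called by edgeR, with log2 fold changes of 1.22, 1.06, 1.49 and 1.12, against 4.97% of the genes tested. The difference of the KD change between the strains was negative for all 9, from -0.78 to -3.90, meaning a smaller estimate in D2, but none passed the adjusted test (lowest edgeR adjusted p = 0.821). The share of all genes called for that difference was 0%, and at an unadjusted p under 0.05 it was 5.9%, with 1 of the 9 (C3). A smaller change in D2 was therefore not shown for any of the 9 genes. Hp1bp3 itself differed less between the D2 groups, and its difference of change was 0.30 ± 0.21 (edgeR adjusted p = 0.943).

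Between the strains without knockdown, D2 Ctrl against B6 Ctrl, none of the 9 was called, against 14% of all genes tested, and 1 of 9 (C3) had an unadjusted p under 0.05, against 23.2%. Nor did any gene of the 9 have all D2 Ctrl libraries above all B6 Ctrl libraries, as 13.9% of all genes did, or all below, as 17.9% did. The log2 fold changes were between -0.46 and 0.46 for 8 of 9. C3 was the exception, at 2.26 ± 0.87 (4.80-fold higher in D2, edgeR adjusted p = 0.132). D2 Ctrl 2, at 12.3 CPM, lay below B6 Ctrl 2, at 14.1 CPM, and the other D2 controls lay above all B6 controls.

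Levels can be compared between genes only per length, here as CPM per kilobase of exon. In B6 Ctrl the order was C1qa at 42.9 ± 6.05, C1qb at 36.7 ± 3.72, C4b at 29.7 ± 4.85 and C1qc at 20.8 ± 2.77 CPM per kilobase (SD, n = 3). C1qa overlapped C1qb and C1qb overlapped C4b, whereas C4b lay above C1qc in all libraries. Far below came Serping1 at 4.99, C3 at 1.55, C3ar1 at 1.12, C2 at 0.63 and Cfb at 0.37 CPM per kilobase, each overlapping its neighbour. In B6 KD the order was C1qa at 132.4, C4b at 125.0, C1qb at 97.4, C1qc at 52.0 and C3 at 19.99 CPM per kilobase, with C3 now above Serping1 in the mean but overlapping it. In D2 Ctrl C3 was also above Serping1 in the mean, at 7.31 and 6.43 CPM per kilobase, with overlap. In D2 KD it was below, at 6.40 and 8.26 CPM per kilobase, again with overlap.

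The ratios of C1qa to the other C1q chains differed between the strains although no chain was called. The ratio of C1qa to C1qb per kilobase was 1.10 to 1.40 in the 6 B6 libraries and 1.71 to 2.07 in the 6 D2 libraries. The ratio of C1qa to C1qc was 2.03 to 2.62 in B6 and 3.00 to 3.46 in D2. These ranges did not overlap, whereas those of C1qc to C1qb, 0.53 to 0.58 and 0.57 to 0.65, did. How many ratios of other gene pairs separate the strains in this way was not counted. Separation was common for single genes: all D2 Ctrl libraries lay above all B6 Ctrl libraries for 13.9% of genes tested and below for 17.9%. Within B6, the ratio of C1qa to C1qb was 1.23, 1.18 and 1.10 in Ctrl and 1.39, 1.40 and 1.25 in KD, and within D2 the groups overlapped. Reads of each mouse were aligned to the genome of its own strain, so a difference in transcript level and one in reference or alignment cannot be told apart.

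**Figure D4:**
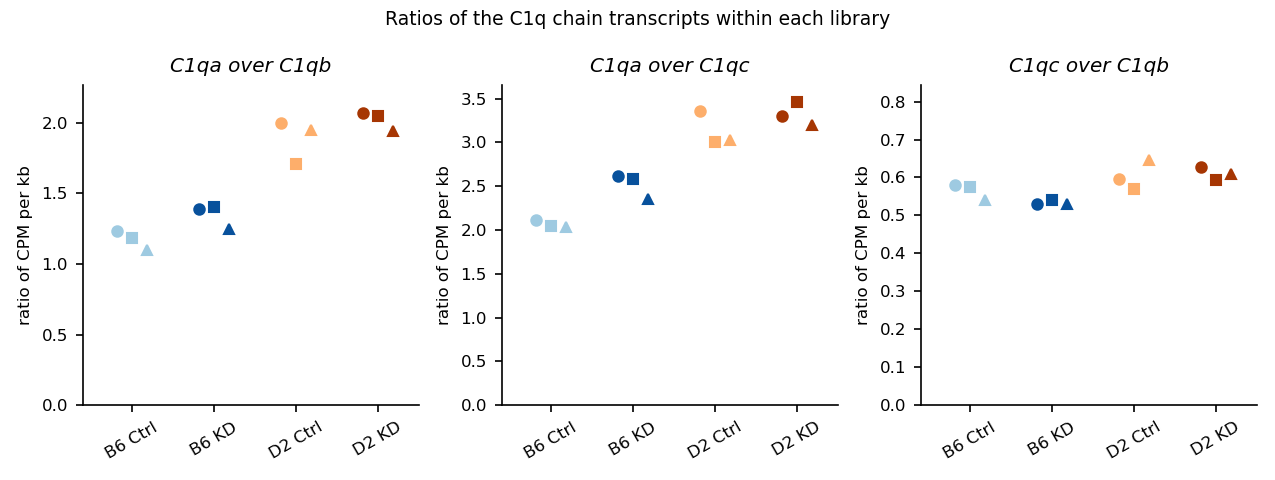
Ratios of the 3 C1q chain transcripts in each library, as CPM per kilobase of exon, with axes from 0 (circle, square and triangle for replicates 1, 2 and 3). C1qa over C1qb is at most 1.40 in B6 and at least 1.71 in D2, and C1qa over C1qc is at most 2.62 in B6 and at least 3.00 in D2.

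Of 57 further complement genes listed by role, 56 were in the table and 42 were tested. In B6, 2 of 42 (4.76%) were called, against 2.64% of all genes tested, and both rose in KD. C1ra, which encodes the protease C1r, was 2.32, 5.08 and 2.08 CPM in Ctrl and 14.6, 15.1 and 7.16 CPM in KD, without overlap. It rose by 1.96 ± 0.45 on the log2 scale (edgeR adjusted p = 0.0473). Itgam, a chain of complement receptor 3 through which microglia bind C3 fragments, was 30.8, 29.0 and 28.9 CPM in Ctrl and 71.2, 74.7 and 43.3 CPM in KD. It rose by 1.09 ± 0.23 (edgeR adjusted p = 0.042), while in D2 its log2 fold change was 0.02 ± 0.23. Both calls were close to the threshold: of 12 fits that left out 1 library, 5 called C1ra (those without B6 Ctrl 2, B6 KD 3, D2 Ctrl 3, D2 KD 2 or D2 KD 3) and 4 called Itgam (the same but that without B6 Ctrl 2), and the edgeR adjusted p-values reached 0.204 and 0.188 in the others. C1ra also lost its call in 6 and Itgam in 4 of 11 other settings, which include the fit of only the B6 libraries. Of the 40 genes not called, 25 had a positive log2 fold change, and their median was 0.36. In D2, averaged over the strains and for the difference between them, none of the 42 was called.

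In the strain comparison 1 gene of the list was higher and 5 were lower in D2 Ctrl than in B6 Ctrl, together 14.3% of the 42, near the 14% of all genes tested. Susd4, a membrane regulator of complement found in brain, was 158, 151 and 165 CPM in B6 Ctrl and 92.6, 81.7 and 94.0 CPM in D2 Ctrl, with a change of -0.82 ± 0.11 on the log2 scale (edgeR adjusted p = 0.000385). Cd46, another regulator, was 2.00 to 2.72 CPM in B6 Ctrl and 0.30 to 0.85 CPM in D2 Ctrl (log2 fold change -2.09 ± 0.36, edgeR adjusted p = 0.00207). C5ar2, a receptor of C5a, was 0.93 to 1.40 CPM in B6 Ctrl and 0.22 to 0.41 CPM in D2 Ctrl (log2 fold change -1.93 ± 0.32, edgeR adjusted p = 0.00164). C4a, the near copy of C4b, was 5.23 to 5.69 CPM in B6 Ctrl and 2.41 to 3.45 CPM in D2 Ctrl (log2 fold change -0.88 ± 0.19, edgeR adjusted p = 0.00845). C4a also shares reads with C4b. Every fit started from the same alignments, made to the genome of each mouse's own strain. None could therefore tell a difference in level from one in reference or alignment. Susd4, Cd46, C5ar2 and C4a were called in every one of the 11 other settings and the 12 fits without 1 library. Cd59b, which blocks the membrane attack complex and has a near copy, Cd59a, changed by -1.55 ± 0.40 (edgeR adjusted p = 0.0238) and lost its call in 4 of 12 such fits, those without B6 Ctrl 2, B6 Ctrl 3, D2 Ctrl 1 or D2 Ctrl 2, and with the library total as a covariate (edgeR adjusted p = 0.0702). Mbl2, a lectin that starts the lectin arm, was at 0 to 0.027 CPM in B6 Ctrl and 0.186 to 0.37 CPM in D2 Ctrl, with at most 10 expected counts in any library (edgeR adjusted p = 0.0146), and lost its call without B6 Ctrl 2 or B6 Ctrl 3 and with the library total as a covariate (edgeR adjusted p = 0.0586).

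Hc encodes C5, and DBA/2J mice are known to lack circulating C5 through a mutation in this gene. Its transcript was near the lower limit of measurement in every library, at 0.17 to 0.76 CPM in B6 Ctrl, 0.62 to 0.81 in B6 KD, 0.22 to 0.34 in D2 Ctrl and 0.32 to 0.52 in D2 KD. The ranges of the Ctrl groups overlapped, and no comparison was called. With 6 to 32 expected counts in a library, its counts were among the lowest of the genes named here, and its strain log2 fold change was -0.51 ± 0.50 (edgeR adjusted p = 0.628).

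**Figure D5:**
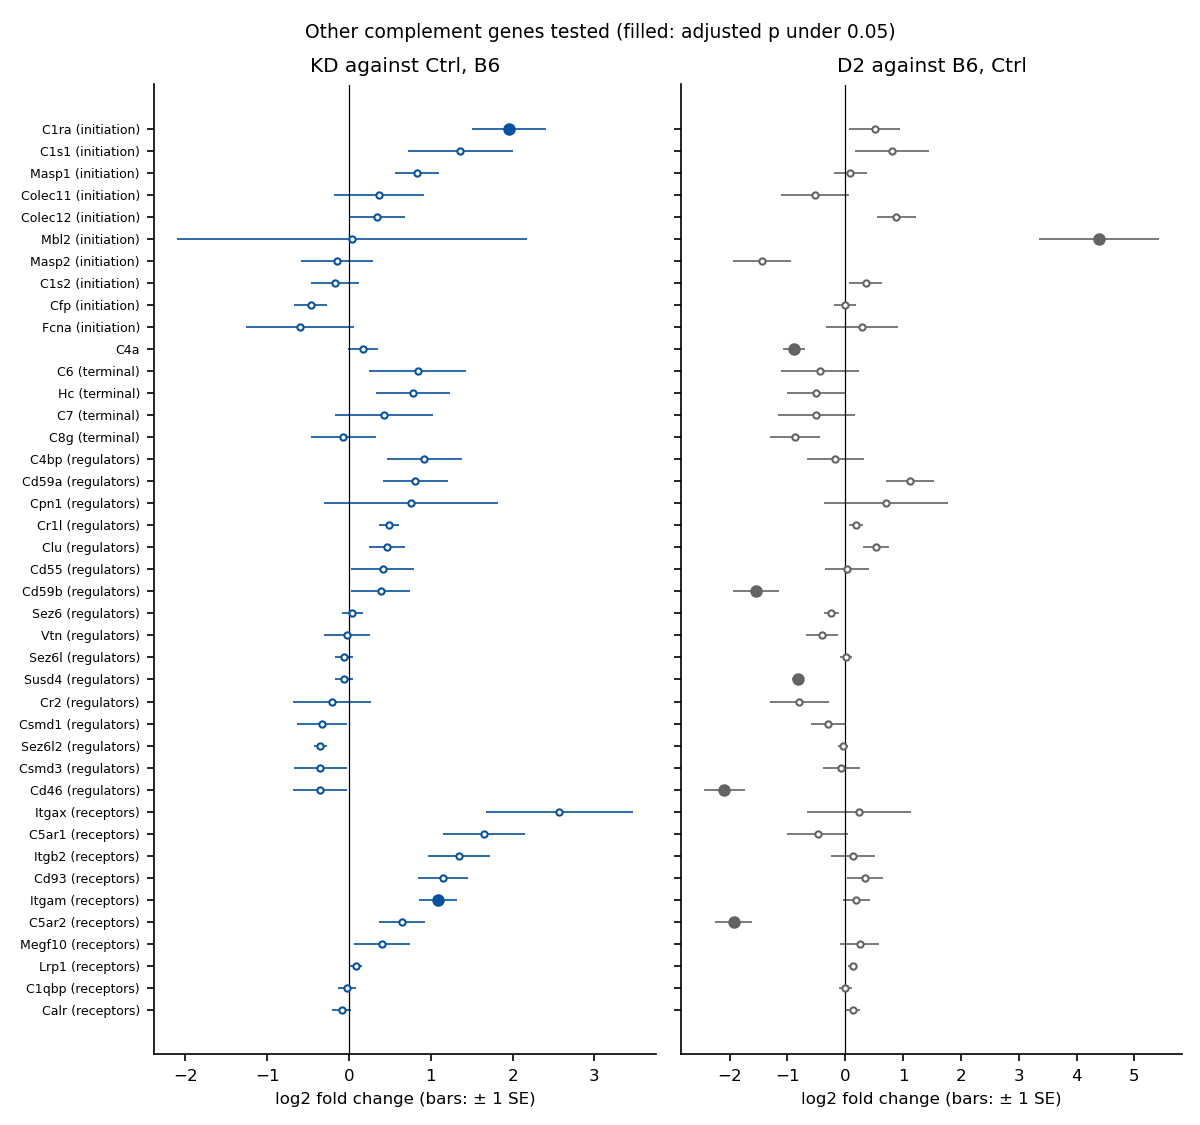
Log2 fold change with bars of 1 SE for further complement genes tested, ordered by role, for KD against Ctrl in B6 (left) and D2 against B6 in Ctrl (right). Filled points passed the adjusted threshold: C1ra and Itgam on the left, and Mbl2, C4a, Cd59b, Susd4, Cd46 and C5ar2 on the right.

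The genes whose levels most resembled each of the 9 across the 12 libraries were found by the Pearson r of log2(CPM + 1) over 14172 genes with a mean of at least 1 CPM. For C1qa they were Cd52 (r = 0.995), Aif1 (0.991) and Gbp6 (0.989). For C1qb they were Lcp1 (r = 0.985), Fcer1g (0.98) and Apbb1ip (0.98), and for C1qc Lag3 (r = 0.981), Lcp1 (0.978) and Tyrobp (0.975). Aif1 and Tyrobp are common markers of microglia and belong to the marker list above. For C4b they were Unc93b1 (r = 0.992), Itgb2 (0.986) and Lat2 (0.982), and for C3ar1 Ms4a6d (r = 0.978), Ctsb (0.975) and Clec7a (0.973). For C3 they were Myo1f (r = 0.973), Syk (0.96) and Fes (0.959), and for C2 they included Fgl2 (r = 0.951) and Cyp1b1 (0.947). For Cfb they were Ms4a4c (r = 0.956), Ptprc (0.955) and Lcn2 (0.953), and for Serping1 Spp1 (r = 0.977), Icam1 (0.963) and Ncf4 (0.96). The points share libraries and groups, and r is given as a description.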

How the data were processed

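Libraries were grouped by their strain and treatment labels, and replicates were numbered in order of deposit, so numbers pair nothing. Nothing beyond the labels says how the mice were housed or batched. The authors aligned each mouse's reads to its own strain's genome and estimated expected counts per gene with RSEM 1.2.12 and Bowtie2 2.2.0. All samples were sequenced again and the runs joined for most, and the sources used here do not say which lack the added reads. The authors also deposited DESeq2 normalized counts, a signal per gene. These gave whole reads for 100% of 266784 values (tolerance 0.01), and a fit on those reads called 425 genes in B6.

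Expected counts of 22236 genes were rounded, 27 symbols turned into dates were restored, and 15853 genes passed filterByExpr. edgeR 4.0.16 (R 4.3.3) tested group means of 12 libraries by its quasi-likelihood test, robust, with TMM scaling and Benjamini-Hochberg adjustment at 0.05 over all genes tested. SEs are the log2 fold change over the square root of F and approximate. p-values measure the spread between the 3 libraries of a group, pooled over all groups in the fit. A p-value for B6 therefore also depends on the spread of the D2 libraries, unless only the B6 libraries were fitted. DESeq2 1.42.0 and limma 3.58.1 (voom) were alternatives. The fits were also run on simulated counts with the same relative spread for every gene and changes only in genes with ample counts. That run does not cover genes with low counts or a wide spread, such as Cfb and C2.

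The 9 genes, the pathway and marker lists and the motifs were chosen with earlier results of these data known. Named were the 9 genes, Hp1bp3, Hc, every listed pathway gene called in any of 5 comparisons, and the 3 genes most like each of the 9, of which 1 is not reported here. Gm20547 and Cd59a were added as an overlapping gene and a near copy. Positions and exon lengths are from GENCODE M21 (GRCm38), which is the B6 reference.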

Additional observations from a re-analysis of the deposited data

How the results depend on the processing

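For KD against Ctrl in B6, 0 of the 9 genes were called in the fit reported, 8 by DESeq2, 4 when only the B6 libraries were fitted, 1 (C3) with the newer quasi-likelihood method, and 0 to 4 when 1 library was left out: 4 without B6 KD 3 or without D2 KD 3, 2 without B6 Ctrl 2 or without D2 KD 2, and 1 without D2 Ctrl 3. Averaged over strains, 5 were called by DESeq2 and 0 to 4 without 1 library, 4 being without D2 KD 3. For D2 against B6 in Ctrl, 1 was called (C3, log2 fold change 2.34 ± 0.42, edgeR adjusted p = 0.00367) with the microglial score as a covariate. The spread was estimated over all libraries of a fit together, so leaving out a D2 library could alter a call in B6. For C1qa in B6 the log2 fold change was 1.63 ± 0.42 in the fit reported and 1.62 ± 0.36 without D2 KD 3. Beyond this, the cause of the differences between fits was not tested. Other scalings, no filter, robust estimation off, limma-voom, the library total or the choroid plexus score as covariates, and whole reads, an alternative chosen after seeing the data, called none of the 9 in any comparison. Over all genes tested, KD against Ctrl in B6 gave 418 calls in the fit reported, 1688 by DESeq2, 0 with the library total, choroid plexus or microglial score as covariate, and 0 (without B6 Ctrl 1, B6 Ctrl 3, B6 KD 1, B6 KD 2 or D2 Ctrl 1) to 790 (without B6 KD 3) when 1 library was left out. Averaged over strains these were 0, 1241 by DESeq2, 15 with the newer method, and 0 to 799, the highest without D2 KD 3.

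Directions turned with the microglial score as a covariate for C1qc (-0.02) and C3ar1 (-0.02) in B6, and for the difference between strains in C1qa (0.26), C1qb (0.21), C1qc (0.36), C4b (0.42), Cfb (0.69) and C3ar1 (0.29). For D2 against B6 in Ctrl they turned for C2 (0.05, limma-voom) and Cfb (-0.07, library total). When 1 library was left out, the D2 log2 fold change ran from -0.07 to 0.78 for C1qb, -0.05 to 0.83 for C1qc, -0.24 to 0.81 for C3ar1 and -0.88 to 0.36 for C3. The strain log2 fold change then ran from -0.12 to 0.53 for C1qa, -0.84 to 0.69 for C2, -0.13 to 0.82 for C4b, -0.42 to 0.39 for Cfb and -0.01 to 0.59 for C3ar1. None of these values was called. Over the 9 genes the B6 direction turned in 2 of 99 fits under the other settings, which include the fit of only the B6 libraries. It turned in 0 of 108 fits that left out 1 library. With Spearman's rho, 10 of the 27 most alike genes were kept. No paired analysis was possible because the replicate numbers do not come from the labels. Among the 9 genes counting error is largest for Cfb and C2. It is larger still for Mbl2 (0 to 10 expected counts in a library), Hc (6 to 32), Cd59b (4.04 to 56.7), C5ar2 (5.48 to 72.4) and Cd46 (8 to 94). With 3 libraries a group the spread between mice limits every comparison.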
